A study of Mus musculus with 45 samples.

Results

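The libraries described here set mouse forelimb buds cultured for 48 h with 50 µM bisphenol S (BPS) against buds cultured for the same time with dimethyl sulfoxide (DMSO), the vehicle, called control here. They are 10 of the 45 libraries of the series, 5 a side, chosen by the dose and culture time in their labels, and every gene with enough reads was tested. BPS, a bisphenol whose phenol rings are joined by a sulfonyl group, has replaced bisphenol A in many products. The study cultured limb buds with 3 bisphenols to follow endochondral ossification, the replacement of cartilage by bone, and only its BPS libraries and their controls are described here. Forelimbs came from CD1 mouse embryos on gestation day 13, an outbred stock, and no genetic change is named for any group. Limbs are described as pooled in glass bottles, with male and female embryos together, and each bottle as receiving DMSO or BPS. The strain field reads CD1 for the control libraries but CD2, CD3, CD4, CD5 and CD6 for the 5 libraries of 50 µM at 48 h, 1 name each, and these were analysed as CD1. Buds cultured for 48 h with 10 µM BPS, and buds cultured for 24 h or 3 h with 50 µM BPS or DMSO, 5 libraries each, serve as comparisons. Whether the replicates of a group are separate bottles or litters is not stated, so the p-values rest on a spread between libraries that may be partly technical.

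The 10 libraries held 16.0 to 22.2 M reads assigned to genes, and expression is given as reads per 1e+06 assigned reads (CPM). A count of 3 reads lies between 0.135 and 0.188 CPM. The limb mesenchyme gene Prrx1 and the cartilage genes Sox9 and Col2a1 stood far above that in each library, markers of muscle, epidermis, vessels, blood and macrophages were present, and the adipocyte markers Adipoq, Cidec and Plin1 had at most 5 reads in a library. Control replicate 1 stood apart from the other 9 libraries on the first principal component (18.9% of the variance, over the 2000 genes that vary most), at 30.8 where the others ran from -11.7 to 10.6. Mitochondrially encoded genes took 1.29 to 1.57% of reads in control and 1.69 to 1.89% at 50 µM, without overlap. The sex mix of the pools also moved with the group. The Y-linked gene Ddx3y ran from 29.3 to 64.8 CPM in control and from 57.1 to 104 CPM at 50 µM. Xist, made from the inactive X chromosome, ran from 679.7 to 1720 CPM in control. At 50 µM Xist ran from 0.12 CPM in replicate 5 to 1158 CPM, with a median of 554.7 CPM. The level in replicate 5 lies below the floor of 3 reads, so the described pooling of both sexes is not borne out for that library. Of the 167 genes called below, 0 lie on the Y chromosome and 4 on the X, namely Nsdhl of the sterol list and, named for this position after their values were seen, Itgb1bp2, Kcne1l and Srpx. The part of the sex mix and of the mitochondrial share in the results was not tested.

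Cells sense cholesterol in the membrane of the endoplasmic reticulum. When it is low, the transcription factors SREBP1 and SREBP2 are released from the retention protein INSIG1, cut, and sent to the nucleus, where they switch on the genes that make cholesterol and unsaturated fatty acids and take up lipoproteins. In limb cartilage, sterols are also needed for hedgehog signalling, in which Indian hedgehog from prehypertrophic chondrocytes sets the pace of chondrocyte maturation. The limb bud further holds tissue macrophages, which depend on the receptor CSF1R, vessels, and the precursors of tendons and joints.

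After 48 h, 167 of 16663 genes differed between 50 µM BPS and control at an adjusted p below 0.05 (edgeR's quasi-likelihood test with Benjamini-Hochberg adjustment), which is 1% of the genes tested. Of these 80 were higher (0.48%) and 87 lower (0.522%). Genes that make cholesterol and unsaturated fatty acids led the rises, and genes of macrophages, vessels, tendon and joint were among the falls. The changes were small. The rises ran to a log2 fold change of 0.92 with a median of 0.41, and the falls to -1.36 with a median of -0.50, and 7 genes changed at least 2-fold, all of them falls. Over all genes tested, the 5 libraries of 50 µM lay entirely above or below the 5 of control for 606 genes (3.64%), and this held for 73 of the 80 genes that rose and 81 of the 87 that fell. In bulk RNA from whole limbs, fewer cells of a type and less RNA per cell cannot be told apart.

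**Figure D1:**
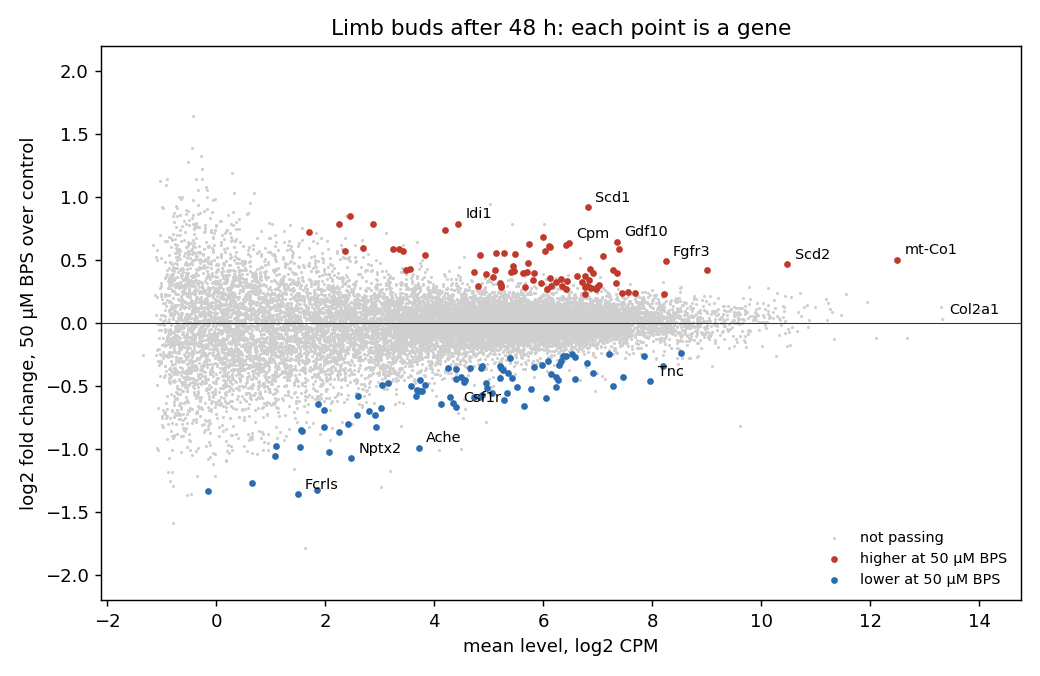
Log2 fold change of 50 µM BPS over control after 48 h (vertical axis) against the mean level in log2 CPM (horizontal axis) for the 16663 genes tested, with the 80 genes that rose in red and the 87 that fell in blue. The rises lie below a log2 fold change of 1 and the largest falls belong to genes of low level, such as Fcrls. The vertical axis ends short of the largest change over all genes, 4.08 in absolute value, which belongs to a gene that did not pass.

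The count depends on single libraries. Left out in turn, each library gave between 55 genes (without 50 µM replicate 4) and 279 genes (without control replicate 1), the latter with 144 higher and 135 lower of 16877 tested, or 1.65%. The count fell to 76 or fewer without any one of control replicates 2 and 4 or 50 µM replicates 1, 2, 3 and 4. All 167 genes kept their sign in all 17 other fits, and 50 of them passed in each of the 10 fits that left out a library. For the genes below, the number of these 10 fits in which a call held is given where it was not all 10.

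Of 48 tested genes in 4 lists of lipid synthesis, 26 rose and 0 fell. The lists cover the mevalonate pathway, sterol synthesis after squalene, the regulators of SREBP with lipoprotein uptake, and fatty acid synthesis with desaturation, and their genes make up 26 of the 80 rises. To show what stands in front of such genes, the 250 bases before the RefSeq start (GRCm38.p6, the mm10 assembly of the count tables) are printed 5′ to 3′ for 4 of them: Hmgcs1, the first committed step to mevalonate and the only gene of the set with a match to the sterol regulatory element; Idi1, the largest rise of the mevalonate list; Insig1, the sensor; and Sc5d, from the last steps of the pathway. Capitals mark matches, on either strand, to TCACNCCAC (a consensus of the sterol regulatory element), to CCAAT (a site of the factor NF-Y) and to CACGTG (an E-box), which do not overlap here.
Hmgcs1 (chr13:119690101-119690350, plus strand): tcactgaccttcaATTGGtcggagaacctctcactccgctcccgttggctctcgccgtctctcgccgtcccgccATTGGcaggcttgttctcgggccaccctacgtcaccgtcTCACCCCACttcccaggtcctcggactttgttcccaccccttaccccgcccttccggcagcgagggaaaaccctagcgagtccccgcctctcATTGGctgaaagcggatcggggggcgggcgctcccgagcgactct
Idi1 (chr13:8885356-8885605, plus strand): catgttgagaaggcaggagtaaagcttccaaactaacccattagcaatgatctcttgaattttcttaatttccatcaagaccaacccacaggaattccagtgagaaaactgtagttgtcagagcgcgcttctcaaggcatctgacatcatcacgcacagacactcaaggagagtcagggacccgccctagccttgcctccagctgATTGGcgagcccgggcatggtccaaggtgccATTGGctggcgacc
Insig1 (chr5:28071162-28071411, plus strand): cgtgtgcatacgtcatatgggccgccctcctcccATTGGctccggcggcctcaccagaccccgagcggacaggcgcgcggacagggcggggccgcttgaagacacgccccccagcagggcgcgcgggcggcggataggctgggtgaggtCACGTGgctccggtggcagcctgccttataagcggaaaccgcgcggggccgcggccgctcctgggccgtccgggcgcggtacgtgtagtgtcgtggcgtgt
Sc5d (chr9:42264301-42264550, minus strand): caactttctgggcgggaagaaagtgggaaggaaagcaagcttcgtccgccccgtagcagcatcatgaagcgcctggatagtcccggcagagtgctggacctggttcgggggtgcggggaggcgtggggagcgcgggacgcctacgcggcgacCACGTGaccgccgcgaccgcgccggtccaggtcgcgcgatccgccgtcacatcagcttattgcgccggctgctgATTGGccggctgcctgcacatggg

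RefSeq promoters were matched for 16 of the 26 genes. For Lss and Acaca the matched stretch does not adjoin the start of the RefSeq gene, and both stay in the counts. The stretch of Lss holds CCAAT, and that of Acaca holds none of the motifs. TCACNCCAC stood in 1 of the 16, Hmgcs1, where it begins 137 bases upstream of the start, against 1.04% of 27025 promoters of the same length. CCAAT stood in 12 of the 16 (75%) against 34.5% of all promoters, in 20 of 40 promoters of the other genes that rose and in 24 of 61 of the genes that fell (39.3%). Hmgcs1 and Msmo1 carry 3 copies each, and Idi1 2 copies, at 45 and 14 bases. CACGTG stood in 3 of the 16, Sc5d, Insig1 and Elovl5, against 6.05% of all promoters. These are counts of letters and not of bound sites.

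In the mevalonate pathway, which builds isoprene units from acetyl-CoA, 6 of 10 genes tested rose and 0 fell, with a median log2 fold change of 0.39. Idi1, which isomerises the isoprene unit, stood at 13.97, 16.8, 16.9, 15.2 and 17.1 CPM in control replicates 1 to 5 and at 34.5, 29.6, 25.2, 26.6 and 21.6 CPM in the replicates of 50 µM. All 5 treated libraries lay above all 5 controls, with a log2 fold change of 0.79 ± 0.110 (standard error, SE; edgeR adjusted p = 0.00236). Hmgcs1 (chr13:119690379-119708260, mm10) had 135, 136, 147, 127 and 131 CPM in control and 240.9, 212, 196, 197 and 165 CPM at 50 µM. It, too, separated the groups without overlap, at 0.59 ± 0.0789 (edgeR adjusted p = 0.00234). Acat2, the cytosolic thiolase at the entry, rose by 0.34, Mvd, the decarboxylase, by 0.48, and Fdft1, the squalene synthase, by 0.34. Their calls held in 6, 2 and 3 of the 10 fits that left out a library. Mvk, Pmvk, Fdps and Ggps1 did not pass, at 0.068, 0.11, 0.49 and -0.024.

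Sterol synthesis after squalene gave 9 rises among 11 genes tested and 0 falls, with a median of 0.44, from the ring closure to the last reductions. Lss, which folds squalene epoxide into lanosterol, read 48.4, 50.0, 52.4, 46.6 and 49.6 CPM in control and 93.5, 85.5, 83.5, 72.5 and 60.0 CPM at 50 µM. The groups did not overlap, and the log2 fold change was 0.68 ± 0.0930 (edgeR adjusted p = 0.00234). Dhcr7, the reductase whose loss causes Smith-Lemli-Opitz syndrome with limb malformations, had 59.1, 57.1, 55.8, 53.9 and 52.2 CPM in control and 103, 89.5, 77.6, 81.4 and 70.4 CPM at 50 µM. It rose by 0.61 ± 0.0838 (edgeR adjusted p = 0.00234), again with all treated libraries above all controls. Msmo1, which removes methyl groups at carbon 4 of the sterol, read 59.1, 59.3, 53.6, 52.3 and 50.5 CPM in control and 102, 85.0, 83.7, 82.0 and 65.6 CPM at 50 µM, a log2 fold change of 0.61 (edgeR adjusted p = 0.00352). Its partner dehydrogenase Nsdhl rose by 0.55 and the desaturase Sc5d by 0.45, each called in all 10 fits that left out a library. The epoxidase Sqle (0.38), the demethylase Cyp51 (0.38) and the reductase Tm7sf2 (0.40) rose as well, with calls that held in 3, 4 and 2 of those fits. The isomerase Ebp stood at -0.055 and Hsd17b7 at 0.44, and neither passed.

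Among the regulators and the uptake genes, 5 of 13 rose and 0 fell, with a median of 0.23. Insig1, which holds SREBP back and is itself a target of it, had 52.3, 56.8, 52.95, 53.8 and 47.5 CPM in control and 89.5, 77.4, 82.5, 77.0 and 64.6 CPM at 50 µM, with a log2 fold change of 0.58 ± 0.0783 (edgeR adjusted p = 0.00234). All treated libraries lay above all controls. Srebf2, the gene of SREBP2, passed narrowly, at 0.23 ± 0.0536 (edgeR adjusted p = 0.0499, held in 1 of 10), and the cholesterol carrier Stard4 rose by 0.41 (held in 4 of 10). Srebf1 (0.20), Insig2 (0.045) and the escort Scap (-0.12) did not pass.

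Fatty acid synthesis and desaturation had 6 rises among 14 genes tested and 0 falls, with a median of 0.26. Scd1, a stearoyl-CoA desaturase that makes monounsaturated fatty acids (chr19:44394451-44407709), was the largest rise of all. It read 70.7, 84.2, 82.6, 77.4 and 76.3 CPM in control and 175, 152, 145, 144 and 121 CPM at 50 µM, so that the lowest treated library lay well above the highest control. The log2 fold change was 0.92 ± 0.0810, a 1.89-fold level (edgeR adjusted p = 3.58e-05). Scd2, a second desaturase, was more abundant, at 1042, 1181, 1373, 1169 and 1233 CPM in control and 1770.4, 1827, 1568, 1610.5 and 1478 CPM at 50 µM, and rose by 0.47 ± 0.0780 (edgeR adjusted p = 0.00811). Per kilobase of gene model, a scale on which genes can be compared, the control level was 220.0 CPM for Scd2, 29.4 for Hmgcs1, 16.2 for Scd1 and 4.56 for Idi1. Acaca, which makes malonyl-CoA, rose by 0.29, the polyunsaturated desaturases Fads1 and Fads2 by 0.25 and 0.28, and the elongase Elovl5 by 0.27 at an edgeR adjusted p of 0.0499, with calls that held in 5, 2, 4 and 2 of the 10 fits. Fasn, fatty acid synthase itself, did not pass (0.18 ± 0.0688, edgeR adjusted p = 0.267). Neither did any of 9 tested genes of cholesterol export or of 17 of lipid droplets and fatty acid use, with medians of 0.028 and -0.12.

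The treated libraries ranked alike for gene after gene. Across the 26 lipid genes, 50 µM replicate 1 was the highest of the 5 treated libraries for 21, and replicate 5 the lowest for 25. The median log2 ratio to the control mean was 0.58, 0.48, 0.43, 0.43 and 0.22 in 50 µM replicates 1 to 5. In control the same median stayed between -0.055 and 0.045. Replicate 5 is the library with almost no Xist. Without it the 4 lists held 7, 10, 4 and 5 calls, and without control replicate 1 they held 5, 9, 5 and 8. Without 50 µM replicate 4, the library whose absence cost most calls, they held 2, 6, 3 and 2.

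**Figure D2:**
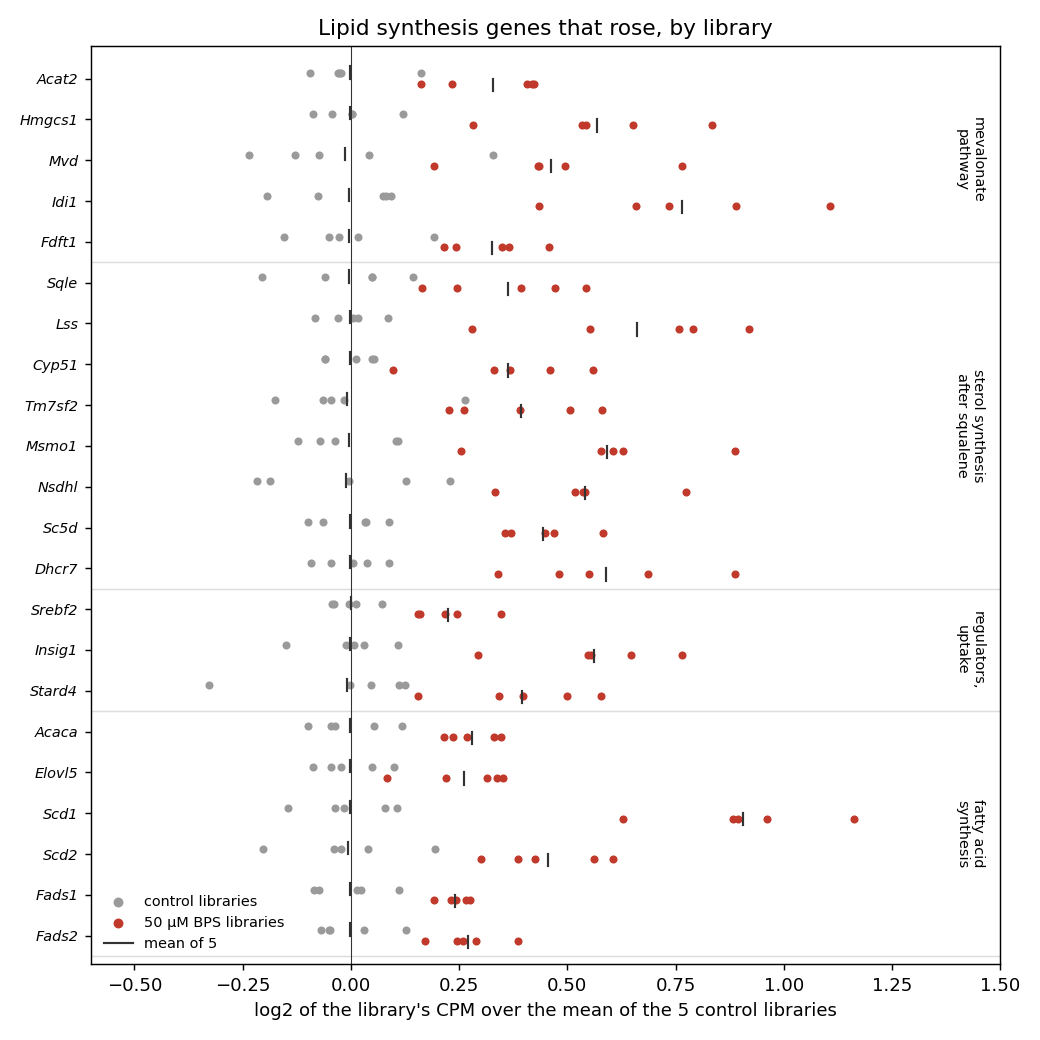
Log2 ratio of each library's CPM to the mean of the 5 control libraries (horizontal axis) for 22 of the 26 lipid synthesis genes that rose (rows, grouped by list), with control libraries in grey, 50 µM BPS libraries in red and a bar at the mean of 5. The red points lie right of 0 for each gene, reach furthest for Idi1 and Scd1, and overlap the grey ones for Mvd, Tm7sf2 and Elovl5.

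Outside the lipid lists, Cpm and Gdf10 had the smallest adjusted p of the rises. Cpm, which encodes the membrane-bound carboxypeptidase M (chr10:117629500-117687352), read 66.0, 71.9, 73.7, 66.1 and 71.0 CPM in control and 113, 114, 99.3, 106 and 106 CPM at 50 µM. The treated libraries fell in a narrow band above all controls, with a log2 fold change of 0.63 ± 0.0564 (edgeR adjusted p = 3.58e-05). Gdf10, a secreted ligand of the TGF-beta family also called BMP3b, had 139.7, 139, 112, 118 and 127 CPM in control and 189.5, 200.3, 195, 211 and 196 CPM at 50 µM, a log2 fold change of 0.65 ± 0.0654 (edgeR adjusted p = 0.000154). Of 27 tested genes of a BMP and TGF-beta list, which does not hold it, 0 passed. Cldn11, a tight junction claudin, read 17.4, 13.8, 14.1, 12.9 and 10.7 CPM in control and 23.6, 24.7, 21.8, 21.3 and 23.3 CPM at 50 µM, and rose by 0.74 ± 0.108 (edgeR adjusted p = 0.00324). Cyp1a1, the best known gene induced through the aryl hydrocarbon receptor, was at 4.05, 2.67, 3.22, 4.04 and 3.61 CPM in control and 4.87, 6.48, 5.62, 5.14 and 7.94 CPM at 50 µM. Its log2 fold change of 0.78 ± 0.169 (edgeR adjusted p = 0.0399) passed in 2 of the 10 fits that left out a library, and 0 of the 7 other tested genes of that receptor passed.

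Of 19 tested genes of FGF signalling 3 rose and 0 fell, all 3 of them receptors, and 0 of 7 cartilage matrix collagens passed. Fgfr3, the receptor that restrains chondrocyte growth, read 244.2, 287, 214, 253 and 266 CPM in control and 380.4, 352, 340.0, 369 and 327 CPM at 50 µM, without overlap, a log2 fold change of 0.49 ± 0.0731 (edgeR adjusted p = 0.00352). Fgfr2 (0.24) and Fgfr4 (0.32) rose by less, each held in 2 of 10 fits. Ihh, Indian hedgehog, had 56.0, 44.2, 30.1, 41.5 and 38.5 CPM in control and 70.3, 60.0, 61.9, 69.0 and 62.0 CPM at 50 µM. The treated libraries lay close together above a scattered control group, at 0.63 ± 0.123 (edgeR adjusted p = 0.0295, held in 4 of 10). Its target genes gave no call, with Ptch1 at 0.27 ± 0.106 and Gli1 at 0.067 ± 0.0590. Sox9, the master factor of cartilage, read 380.3, 415, 383, 429 and 428 CPM in control and 467, 416, 436, 473 and 415 CPM at 50 µM, with overlap. Col2a1 differed by 0.032 ± 0.104, Acan by 0.036 ± 0.0896 and Col10a1, the collagen of hypertrophic cartilage, by -0.45 ± 0.397, and none of the 3 passed. Among bone genes Runx2 (0.087), Sp7 (0.0021), Ibsp (0.090), Spp1 (0.18), Col1a1 (-0.12), Alpl (0.078) and Mmp13 (-0.27) did not pass either, nor did any of 18 tested genes of the osteoblast list. The estrogen receptor gene Esr1, for which bisphenols are known ligands of the protein, stood near 1.02 CPM in control and gave no call (-0.11 ± 0.275).

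Of 23 tested targets of ATF4, the factor of the amino acid stress response, 2 rose and 0 fell. Cth, which makes cysteine from cystathionine, read 6.39, 5.48, 5.32, 5.57 and 4.20 CPM in control and 11.1, 9.65, 7.10, 8.95 and 9.42 CPM at 50 µM, a log2 fold change of 0.79 ± 0.138 (edgeR adjusted p = 0.0116). Atf5, a stress-induced transcription factor, had 132, 127, 97.7, 113 and 89.2 CPM in control and 188, 162, 149, 164 and 143 CPM at 50 µM and rose by 0.53 ± 0.104 (edgeR adjusted p = 0.0273, held in 6 of 10). The median of the 23 targets was 0.22, with 19 above 0. The chaperone Hspa5, a standard readout of endoplasmic reticulum stress, gave 0.082 ± 0.0620 and did not pass, and Dnajb9 (0.30, held in 2 of 10) was the 1 call among 19 genes of that response. Of the mitochondrially encoded genes, mt-Co1, a subunit of cytochrome oxidase, read 4311, 5005, 4392, 5211 and 5059.9 CPM in control and 7298, 6576, 6345, 7006 and 6599 CPM at 50 µM. The groups did not overlap, at 0.50 ± 0.0761 (edgeR adjusted p = 0.00356). It was the 1 call among 12 tested genes of that list, 11 of them above 0 with a median of 0.18. The libraries were made from poly-A RNA, and the large mitochondrial ribosomal RNA mt-Rnr2, named here after its values were seen, also rose (0.42 ± 0.0621).

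**Figure D3:**
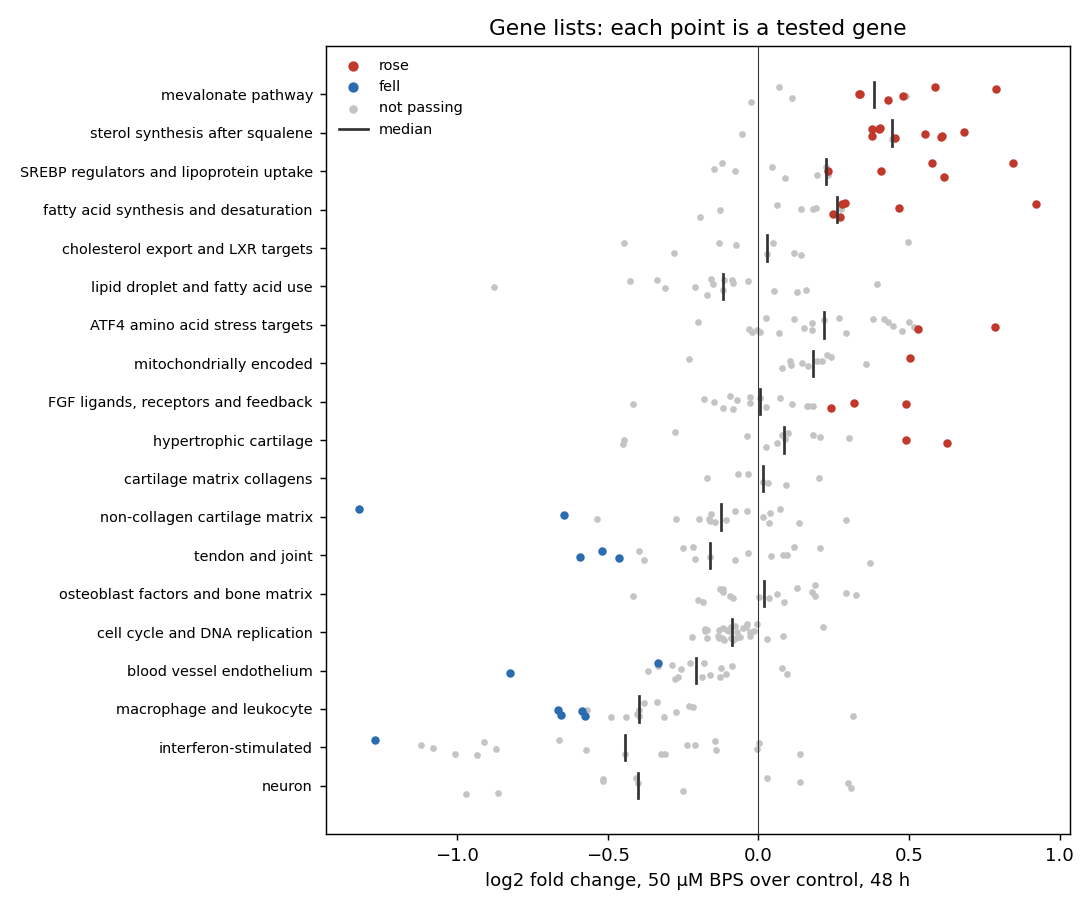
Log2 fold change of 50 µM BPS over control after 48 h for each tested gene (points) of 19 gene lists (rows), with genes that rose in red, genes that fell in blue, genes that did not pass in grey and a bar at the median of each list. Red points crowd the 4 lipid synthesis lists at the top, and blue points stand in the lists of cartilage proteins other than collagen, tendon and joint, vessels, macrophages and interferon targets.

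Of 17 tested genes of macrophages and leukocytes 4 fell and 0 rose, 16 had a value below 0, and the median was -0.40, where the median of all 16663 genes was -0.0041. Csf1r, the receptor on which tissue macrophages depend, read 28.1, 25.3, 25.5, 26.1 and 25.5 CPM in control and 14.4, 15.5, 14.3, 16.1 and 21.5 CPM at 50 µM. All treated libraries lay below all controls, replicate 5 the least so, with a log2 fold change of -0.67 ± 0.104 (edgeR adjusted p = 0.00501). The complement genes C1qa and C1qc, made by macrophages, fell by 0.58 and 0.57 on the log2 scale (held in 3 and 5 of 10 fits), and the lysozyme gene Lyz2 by 0.65 (edgeR adjusted p = 0.0499, held in 2 of 10). C1qc read 44.1, 34.3, 32, 35.3 and 31.1 CPM in control and 20.2, 26.5, 22.6, 20.7 and 28.1 CPM at 50 µM. Among the largest falls over all genes, Fcrls, an Fc receptor-like protein of tissue macrophages, stood at 5.25, 3.53, 3.02, 4.16 and 4.31 CPM in control and 1.42, 0.994, 1.61, 1.56 and 2.31 CPM at 50 µM, a log2 fold change of -1.36 ± 0.226 (edgeR adjusted p = 0.00805). The scavenger receptor Msr1 (-0.98, held in 4 of 10), the leukocyte adaptor Hcls1 (-0.86, held in 6) and the surface receptor Cd180 (-0.85, held in 2) fell as well. Stab1, a scavenger receptor of macrophages and some vessels, named after its values were seen, went from 50.5, 46.3, 46.9, 41.8 and 49.2 CPM to 29.1, 33.8, 28.3, 29.7 and 32.2 CPM, at -0.61 ± 0.0715 (edgeR adjusted p = 0.000704). The summed level of the list ran from 340 to 443 CPM in control and from 268 to 416 CPM at 50 µM, with overlap.

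Of 18 tested genes of blood vessel endothelium 2 fell and 0 rose, 16 were below 0, and the median was -0.21, or -0.14 without control replicate 1. Cdh5, the cadherin of endothelial junctions, read 91.8, 81.5, 100.2, 87.3 and 77.4 CPM in control and 67.1, 76.0, 65.4, 71.0 and 66.7 CPM at 50 µM, at -0.33 ± 0.0704 (edgeR adjusted p = 0.0368, held in 2 of 10). Aplnr, the apelin receptor of sprouting vessels, fell by 0.83 (held in 4 of 10). Mmrn1, a secreted multimerin of lymphatic vessels and platelets, had 3.31, 2.86, 2.76, 2.32 and 3.12 CPM in control and 1.05, 1.42, 1.42, 1.56 and 1.42 CPM at 50 µM, a log2 fold change of -1.05 ± 0.193 (edgeR adjusted p = 0.0146, and 0.0743 with the replicate number as a block). It was the 1 fall among 7 tested genes of a lymphatic vessel list, whose median was 0.012. Ccbe1, a secreted factor needed for lymphatic sprouting, was its 1 rise (0.54 ± 0.121, held in 2 of 10), and Prox1 (0.21) did not pass. The summed level of the vessel list ran from 455 to 585 CPM in control and from 433 to 495 CPM at 50 µM.

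Tendon and joint genes held 3 falls and 0 rises among 17 tested, with 11 below 0, 6 above 0 and a median of -0.16. Tnc, the matrix protein tenascin C, read 338, 292, 312, 259 and 250.3 CPM in control and 199, 209.7, 194, 231 and 214 CPM at 50 µM. No library overlapped, and the log2 fold change was -0.46 ± 0.0783 (edgeR adjusted p = 0.00895, and 0.0553 with the replicate block). Thbs4, a thrombospondin of tendon, had 97.8, 80.1, 85.9, 65.7 and 69.6 CPM in control and 47.0, 49.5, 51.9, 55.1 and 60.1 CPM at 50 µM, at -0.59 ± 0.0986 (edgeR adjusted p = 0.00839). This call of Thbs4 was lost with all 45 libraries in one fit (edgeR adjusted p = 0.128) and with the replicate block (0.0514). Osr2, a transcription factor of the joint region, read 75.2, 62.5, 61.6, 64.0 and 58.9 CPM in control and 42.2, 42.9, 44.6, 47.7 and 46.4 CPM at 50 µM, at -0.52 ± 0.0719 (edgeR adjusted p = 0.00234). For all 3 genes control replicate 1 was the highest library, and the 3 calls held without it. In that fit the list also held 1 rise. The tendon factor Scx did not pass (-0.25 ± 0.0895), nor did the joint ligand Gdf5 (0.37 ± 0.101).

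Cartilage proteins other than collagen gave 2 falls among 18 tested genes and 0 rises. Ucma, a secreted protein of young cartilage, was near the low end of expression, at 7.99, 4.24, 4.60, 5.08 and 3.93 CPM in control and 1.97, 1.47, 2.26, 2.26 and 2.31 CPM at 50 µM. It fell by 1.32 ± 0.215 on the log2 scale (edgeR adjusted p = 0.00634), and the highest control, replicate 1, stood well above the rest. Cilp, a protein of the cartilage intermediate layer, read 21.7, 23.0, 20.9, 20.9 and 20.1 CPM in control and 11.4, 14.5, 11.6, 15.3 and 14.8 CPM at 50 µM, at -0.65 ± 0.0970 (edgeR adjusted p = 0.00352). Ache, the acetylcholinesterase of muscle and nerve, had 20.8, 17.1, 16.2, 15.4 and 18.6 CPM in control and 6.59, 10.1, 9.10, 9.94 and 8.24 CPM at 50 µM. The groups did not overlap, at -0.99 ± 0.122 (edgeR adjusted p = 0.00108), while the other 27 tested genes of the skeletal muscle list did not pass. Aldh1a3, which makes retinoic acid, read 22.6, 26.1, 23.4, 26.7 and 25.0 CPM in control and 14.5, 15.3, 14.8, 17.4 and 17.4 CPM at 50 µM, at -0.63 ± 0.0856 (edgeR adjusted p = 0.00234), and was the 1 call among 17 retinoid genes. The neuronal pentraxin gene Nptx2 (-1.07, held in 8 of 10), Arhgdig (-1.02), the cytokine gene Flt3l (-0.86, held in 2), the phosphatase subunit gene Ppp2r2c (-0.97, held in 1) and the interferon target Oasl2 (-1.27, held in 1) were also among the 12 largest falls of named genes with at least 1 CPM on average. Oasl2 was the 1 call among 19 interferon-stimulated genes, 17 of which lay below 0 with a median of -0.44.

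**Figure D4:**
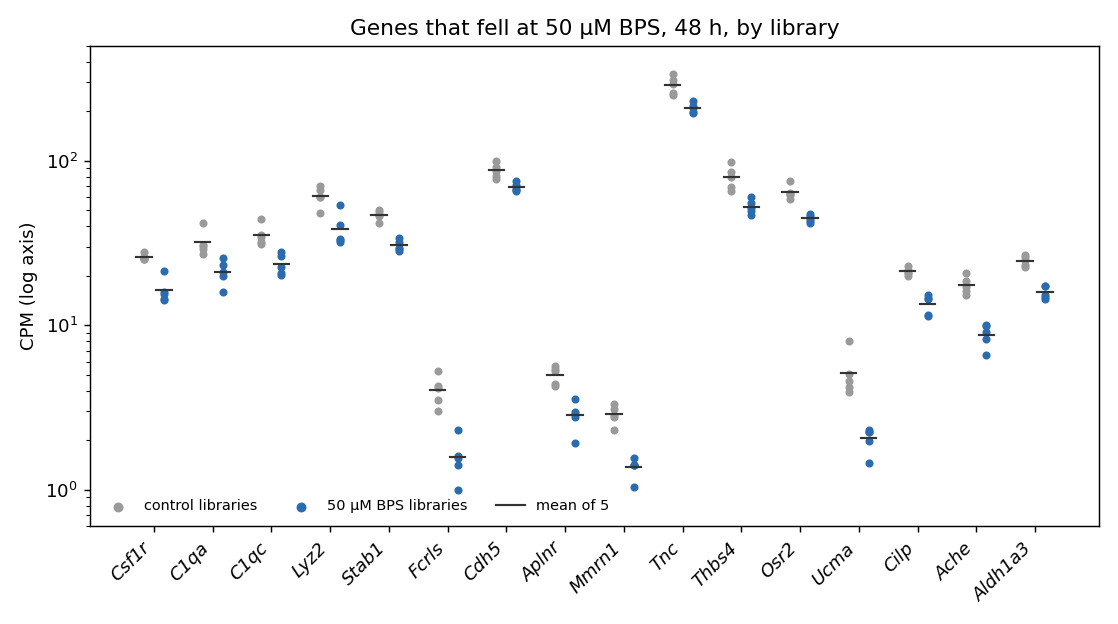
Level in CPM on a log axis of 16 genes that fell, for the 5 control libraries (grey) and the 5 libraries of 50 µM BPS (blue) after 48 h, with a bar at the mean of 5. The blue points of each gene lie below the grey ones except for Lyz2, where they overlap.

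Of the 46 lists in all, 24 held 0 calls. Proliferation was among them, with 0 of 30 tested cell cycle genes passing, 27 of them below 0 and a median of -0.087. Hypoxia and glycolysis gave 0 of 28 with a median of -0.20, the limb Hox and patterning factors 0 of 31 with a median of 0.030, and the nuclear hormone receptors 0 of 24 with a median of 0.066. Neuronal genes gave 0 of 11 with a median of -0.40, or -0.28 without control replicate 1. Their summed levels were 39.0 to 54.0 CPM in control against 33.4 to 36.0 CPM at 50 µM, without overlap. Summed levels separated the groups for other lists too, with and without a call. The interferon list, which held a call, ran from 134 to 143 CPM in control and from 118 to 126 CPM at 50 µM. How many of the 46 lists separate was not counted, and some gaps are narrow, so these ranges are given as values only. The insulin-like growth factor list ran from 5731 to 6472 CPM in control and from 6517 to 6955 CPM at 50 µM. The list of lipid droplets and fatty acid use ran from 770 to 896 CPM and from 703 to 766 CPM. Single calls came from the Wnt list, where the secreted antagonist gene Dkk3 rose by 0.24, the immediate early list, where the factor Klf2 fell by 0.43, and the erythroid list, where the transferrin receptor gene Tfrc fell by 0.32 (held in 3, 3 and 1 of 10 fits). Of the 167 calls, 113 belonged to no list.

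The dose question was asked with the buds cultured for 48 h with 10 µM BPS. Against the same control libraries 0 of 16725 genes passed at 10 µM (0%, edgeR), and DESeq2 and limma-voom also gave 0. An unadjusted edgeR p below 0.05 was reached by 438 genes, fewer than chance alone gives on average at that cut. Set directly against 10 µM, 50 µM differed in 152 of 16505 genes (0.921%), 72 higher and 80 lower. Scd1 stood at 78.2 ± 5.39 CPM in control, 89.9 ± 4.53 CPM at 10 µM and 148 ± 19.4 CPM at 50 µM (SD, n = 5 each). The difference between the doses was 0.71 ± 0.0724 on the log2 scale (edgeR adjusted p = 0.000244). Gdf10 and Cpm stood at 147 ± 10.9 and 85.3 ± 9.43 CPM at 10 µM, and 50 µM was higher than 10 µM by 0.43 and 0.34 (edgeR adjusted p = 0.000244 and 0.00673). Csf1r at 10 µM (25.9 ± 1.42 CPM) lay at the level of control (26.1 ± 1.15 CPM), and the difference of 50 µM from 10 µM was -0.66 ± 0.0975 (edgeR adjusted p = 0.00202). Cyp1a1 did not separate the doses. It stood at 5.55 ± 0.851 CPM at 10 µM and 6.01 ± 1.24 CPM at 50 µM, a difference of 0.11 ± 0.152 (edgeR adjusted p = 0.859), while 10 µM against control gave 0.67 ± 0.160 without passing.

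The time question was asked with the libraries of 24 h and 3 h, which share none with those of 48 h. At 24 h, 62 of 16512 genes differed between 50 µM and their own controls (0.375%), 41 higher (0.248%) and 21 lower (0.127%). That count ran from 2 without 50 µM replicate 4 to 315 without control replicate 5 of 24 h. With the replicate number as a block, 949 genes differed at 24 h. Same-numbered libraries of 24 h correlated above 0.1 in 4 of the 5 pairs. At 3 h 9 of 16722 differed (0.0538%). Libraries of 3 h with the same replicate number deviated together in each of the 5 pairs, and with the replicate number as a block 256 genes differed at 3 h (1.53%), 134 higher (0.801%) and 122 lower (0.73%). The counts of the 3 times are therefore not set against each other. Of the 80 genes that rose at 48 h, 78 lay above 0 at 24 h with a median log2 fold change of 0.20, and 16 passed there as higher. Of the 87 that fell, 86 were tested at 24 h, 83 lay below 0 with a median of -0.26, and 9 passed as lower. These passes at 24 h are from the fit without the block. At 3 h, 62 of the 80 lay above 0 (median 0.11) and 63 of 86 below 0 (median -0.067). Across all genes tested at both times, the log2 fold changes of 48 h and 24 h correlated with Pearson's r = 0.39. Those of 48 h and 3 h correlated with r = 0.13. Across the called genes r was 0.86 and 0.49. The called genes were selected by their 48 h values, which by itself raises r, so these values cannot be set against those of all genes. These are correlations across genes, which are not independent replicates.

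All 26 lipid genes lay above 0 at 24 h with a median of 0.26, and 8 passed without the replicate block. At 3 h 25 of them lay above 0 with a median of 0.15, and 0 passed without the replicate block. With the block, all 26 lay above 0 at 3 h and 9 passed as higher, among them Scd1 (0.32 ± 0.0492, edgeR adjusted p = 0.00055), Hmgcs1 (0.20), Dhcr7 (0.25), Acat2 (0.20), Cyp51 (0.20), Sqle (0.15) and Scd2 (0.15). Scd1 moved by 0.32 ± 0.0694 at 3 h, 0.61 ± 0.0869 at 24 h and 0.92 ± 0.0810 at 48 h. Cpm, which also passed at 3 h with the block, moved by 0.20, 0.42 and 0.63 at these times, and Lss by 0.035, 0.35 and 0.68. A change of another shape was that of Mettl17, a factor of the mitochondrial ribosome, named here after its values were seen. It fell by 0.54 at 3 h, 0.60 at 24 h and 0.59 at 48 h (edgeR adjusted p = 0.0250, 0.000170 and 0.000672). At 48 h it read 34.7, 35.1, 31.7, 35.8 and 35.4 CPM in control and 23.6, 22.6, 22.8, 21.5 and 23.8 CPM at 50 µM, and all treated libraries lay below all controls. Tnc and Ache passed at 48 h and gave 0.0019 ± 0.0971 and -0.039 ± 0.275 at 24 h. For neither gene did the difference between 48 h and 24 h pass in the interaction test given below.

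**Figure D5:**
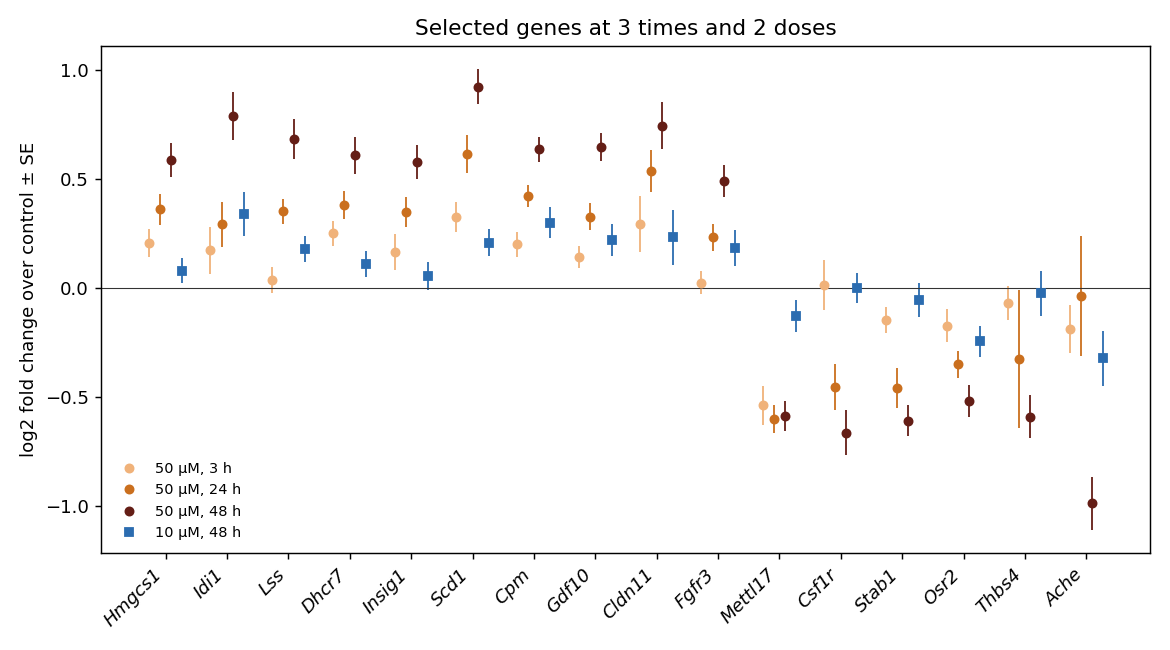
Log2 fold change over the control libraries of the same time, with its SE as bars, for 16 genes at 50 µM BPS after 3, 24 and 48 h (circles, light to dark) and at 10 µM BPS after 48 h (blue squares). For Scd1 the values are 0.32, 0.61 and 0.92 at 50 µM and 0.21 at 10 µM, while the 3 circles of Mettl17 lie close together near -0.6.

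Whether the response differed between times was tested as an interaction over all 45 libraries. Between 48 h and 24 h, 0 of 18432 genes passed (0%, edgeR), and DESeq2 and limma-voom gave 0 as well. An unadjusted edgeR p below 0.05 was reached by 640 genes, again fewer than chance alone gives on average. Between 48 h and 3 h, 17 of 18432 passed (0.0922%), 11 with a higher response at 48 h and 6 with a lower one. Lss led them, with a response larger by 0.65 ± 0.112 at 48 h than at 3 h (edgeR adjusted p = 0.00752). Gdf10 (0.51), Fgfr3 (0.47), Cpm (0.44), Scd1 (0.60), Cth (0.77), Mmrn1 (-1.18) and Csf1r (-0.68, edgeR adjusted p = 0.0462) were among the others.

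The genes that changed were also set against what culture alone does, read from the control libraries of 3 h and 24 h, which are not part of the 48 h comparison. Of the 80 genes that rose at 50 µM, 60 (75%) were higher in control at 24 h than at 3 h, with a median log2 difference of 0.25, and of the 26 lipid genes 24 (92.3%) were. Of 86 tested genes that fell at 50 µM, 65 (75.6%) were likewise higher at 24 h, with a median of 0.29. Among all genes tested the share was 49.2%. The called genes had a higher median control level, 42.7 CPM against 23.0 CPM for all genes tested. The shares are therefore not like for like, and the part of expression level in them was not tested.

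The authors' deposited table for this comparison lists 435 genes at an adjusted p below 0.05, 197 higher and 238 lower. Of these, 166 were among the 167 called here.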

How the data were processed

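Poly-A RNA of the limb buds was sequenced. The submitters' processing notes list HTSeq 0.6.1, STAR 2.5, CASAVA 1.8, a DESeq2 entry with version 2 and build mm10, without saying which did what; the options and the annotation release are not given. Per the file headers, the authors deposited unnormalised counts for each gene in each library, and these fed all tests here. The log2 fold changes and adjusted p-values of the authors' deposited table were used for 1 count of genes. The FPKM values and scaled counts were not used.

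The tables were joined by gene identifier (34914 genes). Among 435225 control counts that both tables hold, 0 differed. A gene that a table lacked had at most 1 read elsewhere and was set to 0, and 0 columns of other samples were found. No pair of replicates agreed within sampling noise (chi-square per degree of freedom at least 4.58 over 30 pairs). Since strand is not stated to be kept, overlapping and antisense genes are uncertain. Without molecular identifiers, the floor of 3 reads covers counting error only.

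The main test was edgeR 4.0.16 (R 4.3.3) with TMM scaling, filterByExpr, a robust two-sided quasi-likelihood test and Benjamini-Hochberg adjustment over all genes tested, on the 10 libraries of a comparison; interactions used all 45 libraries. CPM used TMM factors over 45 libraries. The SE was taken from the fold change and its F statistic. Alternatives were RLE size factors, DESeq2 1.42.0, limma-voom (limma 3.58.1), no filter, non-robust dispersion, a replicate block (where same-numbered libraries correlated above 0.1 in all 5 pairs, as at 3 h, at 0.11 to 0.25, its result stands beside the main one), other sets of libraries and leaving out each library. The script was tested on simulated data.

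The comparison, the 46 gene lists and the naming rule were chosen with earlier results of these data known. The rule took the 12 largest rises and 12 largest falls among called genes of at least 1 CPM on average with a symbol that is no gene model name, the 4 members of a list with the smallest p, and a panel of 25 genes, 206 genes in all; those the results turn on are printed, and some are not reported here. Named beyond it were the other members of the 4 lipid lists, Prrx1, Scx, Ddx3y, Xist, Stab1, Mettl17, mt-Rnr2 and the genes of the last observations.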

Additional observations from a re-analysis of the deposited data

Results flagged for a closer look

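In 16 of 208 groups of 5 libraries, counted over the genes given here with values, 1 library lay apart from the other 4 by Dixon's test at the 95% level, which chance gives in about 1 in 20 groups. Control replicate 1 was apart for C1qa (42.2 CPM, the others 27.3 to 30.9), Ucma (7.99, the others 3.93 to 5.08), Hist1h1c (46.7, the others 37.1 to 39.4), Slc1a5 (36.3, the others 32.8 to 33.4) and Ggps1 (46.4, the others 55.7 to 58.1). Control replicate 2 was apart for Acat2 (113.7 CPM, the others 95.2 to 100.05) and Msr1 (2.77, the others 3.98 to 4.45), control replicate 3 for Cd180 (2.61, the others 3.91 to 4.24), Mettl17 (31.7, the others 34.7 to 35.8) and Runx2 (80.5, the others 60.4 to 65.1), and control replicate 4 for Flt3l (5.32, the others 3.14 to 3.71). At 50 µM, replicate 5 was apart for Csf1r (21.5 CPM, the others 14.3 to 16.1). Replicate 3 was apart for Col2a1 (9353 CPM, the others 10428 to 10741), replicate 4 for Klf2 (70.1, the others 61.8 to 63.3), replicate 1 for Mmrn1 (1.05, the others 1.42 to 1.56) and replicate 2 for Tfrc (111.4, the others 93.6 to 98.6).

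For 9 printed genes the response to 50 µM differed between 48 h and 3 h in the interaction test of edgeR. The response at 48 h minus that at 3 h was 0.65 for Lss, 0.51 for Slc7a1, 0.51 for Gdf10, 0.47 for Fgfr3, 0.44 for Cpm, 0.60 for Scd1, 0.77 for Cth, -1.18 for Mmrn1 and -0.68 for Csf1r on the log2 scale.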

How the results depend on the processing

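The comparison at 48 h gave 432 calls with DESeq2, 256 with no filter on low counts, 70 with the replicate block (42 higher, 28 lower) and 477 with all 45 libraries in one fit, and 55 to 279 with 1 library left out. RLE size factors (168), limma-voom (115) and non-robust dispersion (151) stayed within 1.5 times of 167. Of 73 printed genes that passed, 33 passed under all 17 alternatives, and 0 of 104 printed genes reversed. For 50 µM against control at 24 h (62), DESeq2 gave 270, limma-voom 23, no filter 221, non-robust dispersion 25, the replicate block 949, all 45 libraries 104, and leaving out a library 2 to 315. At 3 h (9), the same settings gave 54, 1, 59, 1, 256 and 16, and 1 to 18. For 50 µM against 10 µM (152), DESeq2 gave 352, no filter 469, the replicate block 328, and leaving out a library 88 to 203. For 10 µM against control every setting gave 0. The difference of the response between 48 h and 3 h (17) gave 67 with DESeq2, 28 with the replicate block, 10 with only the 4 groups compared and 6 to 23 with a library left out, and that between 48 h and 24 h gave 0 to 1 with a library left out and 0 otherwise. The cause of these shifts was not tested. Same-numbered libraries correlated in their deviations from the group means between -0.038 and 0.20 for 50 µM against control at 48 h, between -0.057 and 0.22 for 50 µM against 10 µM, and between 0.053 and 0.26 at 24 h. The correlation passed 0.1 in 3, 3 and 4 of the 5 pairs, short of all 5, and 3, 3 and 4 of the 5 treated libraries correlated best with their own number. In these comparisons the libraries were taken as sharing a number only. With the block, 32 of the 73 printed calls at 48 h did not pass. Depth limits genes near 1 CPM, such as Oasl2.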

Other observations

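Some called genes that belong to none of the lists are given here as values, chosen after these were seen. Amino acid transporters went in both directions. Slc7a1, the carrier of cationic amino acids, read 61.3, 76.5, 71.0, 73.1 and 69.5 CPM in control and 103, 94.5, 78.6, 92.2 and 78.6 CPM at 50 µM (0.35 ± 0.0797, edgeR adjusted p = 0.0468), with a response at 48 h larger than that at 3 h by 0.51 (edgeR adjusted p = 0.00887). At 3 h with the replicate block Slc7a1 stood at -0.16 (edgeR adjusted p = 0.0498). The glutamine carrier gene Slc1a5 rose by 0.29, and Slc7a7, which exports cationic amino acids, fell by 0.53. Odc1, the first enzyme of polyamine synthesis, went from 140.0, 150.4, 137, 143 and 138 CPM to 201, 179, 176, 197 and 175 CPM without overlap (0.40 ± 0.0561, edgeR adjusted p = 0.00270).

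Among extracellular regulators of BMP signalling, Bmper rose by 0.40 ± 0.0678 and the antagonist chordin, Chrd, fell by 0.44 ± 0.0691 (edgeR adjusted p = 0.00895 and 0.00539). The leptin receptor gene Lepr read 20.6, 22.9, 25.2, 21.9 and 25.9 CPM in control and 38.1, 36.9, 30.9, 31.9 and 31.1 CPM at 50 µM (0.54 ± 0.0855, edgeR adjusted p = 0.00539). The histone genes Hist1h1c and Hist1h2bc, whose transcripts can carry a poly-A tail, fell by 0.55 and 0.54. The calls of Odc1, Bmper, Chrd, Lepr, Hist1h1c and Slc7a7 held in all 10 fits that left out a library, and those of Slc7a1, Slc1a5 and Hist1h2bc in 2, 1 and 4.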
